A study of Mus musculus with 22 samples.

Results

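The 7 chemokine receptor genes of effector T cells, Ccr8, Cxcr6, Cxcr4, Ccr4, Ccr2, Cxcr3 and Ccr6, were followed through RNA-seq libraries of mouse memory T helper cells. The members were chosen by name and are 7 of the 55291 gene names listed per library. The 8 RNA libraries form 4 groups of 2 that cross a location with an origin: tissue ex-TRM and tissue ex-Tcirc, then circulating ex-TRM and circulating ex-Tcirc. TRM is the tissue-resident and Tcirc the circulating memory population. The 14 ATAC-seq samples of the series were not analysed here. All RNA groups were CD4+ T cells of female mice aged 6 to 10 weeks, labelled with the strain Balb/c and with lung as the tissue, the circulating groups included.

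The series' design text describes 2 experiments, both begun with Th2 effector cells, helper cells that make type 2 cytokines. The donors carried a transgenic T cell receptor for ovalbumin (OVA), OT-II creERT2 or DO11.10. The recipients were OVA-sensitized C57BL/6 (Ly5.2) mice or BALB/c-nu/nu mice, nude mice that lack thymus-derived T cells of their own. One experiment traced donor cells after tamoxifen and took cells of lung, sorted by CD69 and congenic markers, and of blood at day 49. The other moved DO11.10 cells of lung TRM or Tcirc origin into new nude recipients and sorted them at day 71 after OVA was given again. Between 3000 and 50000 cells of a subset were used. No RNA label names the experiment of its group, nor whether a group's pair of libraries came from separate animals. The p-values therefore cover only library-to-library spread, possibly technical, and group and experiment cannot be told apart.

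Levels are in FPKM, a fragment count per kilobase of gene and per unit of mapped fragments, and are given as replicate 1 and replicate 2 of a group. Circulating ex-TRM replicate 1 listed 917 names above 0 and all 7 receptors at 0, and was treated as missing. The other libraries listed 29688 to 37894 names above 0 in tissue ex-TRM, tissue ex-Tcirc and circulating ex-TRM replicate 2, against 12785 and 7042 in circulating ex-Tcirc. Of 1054 genes with a tissue mean of at least 50 FPKM, 0.19% were at 0 in circulating ex-TRM replicate 2, and 5.88% and 33.3% in circulating ex-Tcirc; 5.41% were at 0 in both of the last 2 libraries. Of 2818 genes with a tissue mean of at least 20 FPKM, 14.8% were at 0 in both, and of 5687 with at least 10 FPKM, 27.9%. A value of 0 there is therefore given as listed at 0. Fitted log2 differences against such zeros are printed with the test, but the pseudocount sets their size and they give no fold change. The 8 T helper markers, among them Cd3e and Cd4, summed to 1760 and 1720 FPKM in tissue ex-TRM, 1250 and 1600 FPKM in tissue ex-Tcirc, 1800 in circulating ex-TRM replicate 2, and 1490 and 1330 in circulating ex-Tcirc. None of the 8 was at 0 outside circulating ex-Tcirc, where Cd3d was at 0 in both libraries and Lck in replicate 2.

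Chemokine receptors are membrane receptors with multiple transmembrane helices that couple to inhibitory G proteins and steer cells up gradients of small secreted proteins, the chemokines. CCR8, the receptor of CCL1 and in mouse of CCL8, and CCR4, the receptor of CCL17 and CCL22, are known from Th2 cells, and CXCR3, the receptor of CXCL9 and CXCL10, from Th1 cells. CXCR6 binds CXCL16 and is known from T cells that stay in lung and liver. CXCR4 binds CXCL12, CCR2 binds CCL2 and its relatives and is also abundant on monocytes, and CCR6 binds CCL20 and is known from Th17 cells.

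The members are separate genes, and 4 of them lie on chromosome 9. In the assembly GRCm38.p6 (mm10) Ccr8 lies at chr9:120092133-120094906 and Cxcr6 at chr9:123806477-123811754, both on the plus strand. Cxcr4 lies at chr1:128588199-128592299 on the minus strand. The 250 bases before the annotated start of these 3 genes, from RefSeq, are shown because these genes had the clearest contrasts in level, Ccr8 and Cxcr6 between tissue and circulation and Cxcr4 between the circulating ex-Tcirc libraries. Capitals mark matches, on either strand, to 6 short motifs of T cell transcription factors and of the core promoter, spelled out after the sequences.
Ccr8, chr9:120091883-120092132, plus strand: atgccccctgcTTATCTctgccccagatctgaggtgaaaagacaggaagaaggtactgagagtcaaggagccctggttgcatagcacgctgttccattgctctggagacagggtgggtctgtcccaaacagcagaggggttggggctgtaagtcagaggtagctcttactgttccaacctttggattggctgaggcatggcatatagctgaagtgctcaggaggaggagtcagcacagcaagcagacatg
Cxcr6, chr9:123806227-123806476, plus strand: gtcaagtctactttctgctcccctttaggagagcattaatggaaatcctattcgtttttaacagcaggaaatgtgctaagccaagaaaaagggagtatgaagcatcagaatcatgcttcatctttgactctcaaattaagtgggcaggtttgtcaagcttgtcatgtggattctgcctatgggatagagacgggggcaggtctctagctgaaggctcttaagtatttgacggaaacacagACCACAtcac
Cxcr4, chr1:128592300-128592549, minus strand: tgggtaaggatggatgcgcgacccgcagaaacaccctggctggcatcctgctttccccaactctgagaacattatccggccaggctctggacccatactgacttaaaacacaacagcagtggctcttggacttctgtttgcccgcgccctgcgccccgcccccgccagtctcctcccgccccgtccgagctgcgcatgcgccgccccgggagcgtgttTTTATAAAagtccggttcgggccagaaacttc
The Ccr8 window held 1 CpG and, on the reverse strand, a match to the GATA motif AGATAA, which is found in 9.99% of 32841 promoter windows of this length. The Cxcr6 window held 3 CpGs and, close to the start, a match to the Runx motif ACCACA, which is found in 14.0% of windows. The Cxcr4 window held 19 CpGs, against a median of 6 over all windows, and a match to the TATA box TATAAA, found in 12.4% of windows, with an overlapping match of the same motif on the reverse strand. The 3 windows held no match to the AP-1 motif TGAGTCA, found in 4.46% of windows. They held none either to the T-box motif TCACACC (3.33% of windows) or to the Ets motif ACTTCC (19.7% of windows). The matches describe letters only.

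Ccr8, the Th2-type receptor of CCL1, was high in all tissue libraries and low or listed at 0 in circulation. It was at 83.6 and 68.6 FPKM in tissue ex-TRM and 43.7 and 66.6 FPKM in tissue ex-Tcirc. It was at 4.59 FPKM in circulating ex-TRM replicate 2 and listed at 0 in circulating ex-Tcirc, in both replicates. The tissue mean was 65.6 ± 16.5 FPKM (SD, n = 4). Among protein-coding genes above 0 in the same library, Ccr8 stood at percentiles 95.9 to 98.0 in tissue and at percentile 46.8 in circulating ex-TRM replicate 2.

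Cxcr6 was in the same range as Ccr8 in tissue but stood far above it in the circulating ex-TRM library. It was at 88.8 and 70.4 FPKM in tissue ex-TRM and 60.7 and 72.7 FPKM in tissue ex-Tcirc. It was at 41.0 FPKM in circulating ex-TRM replicate 2 and listed at 0 in circulating ex-Tcirc, in both replicates. The tissue mean was 73.2 ± 11.7 FPKM (SD, n = 4). Its percentile was 97.5 to 98.1 in tissue and 93.0 in circulating ex-TRM replicate 2. Cxcr6 overlaps Fyco1, a gene on the opposite strand, which was likewise lower in circulation, at 25.8 and 23.2 FPKM in tissue ex-TRM, 22.7 and 21.1 FPKM in tissue ex-Tcirc, 13.0 in circulating ex-TRM replicate 2 and 0 in both circulating ex-Tcirc libraries. The libraries were made with a strand-specific kit, but the strand setting of the counting is not given in the sources used here, so reads of the pair may have been shared.

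**Figure D1:**
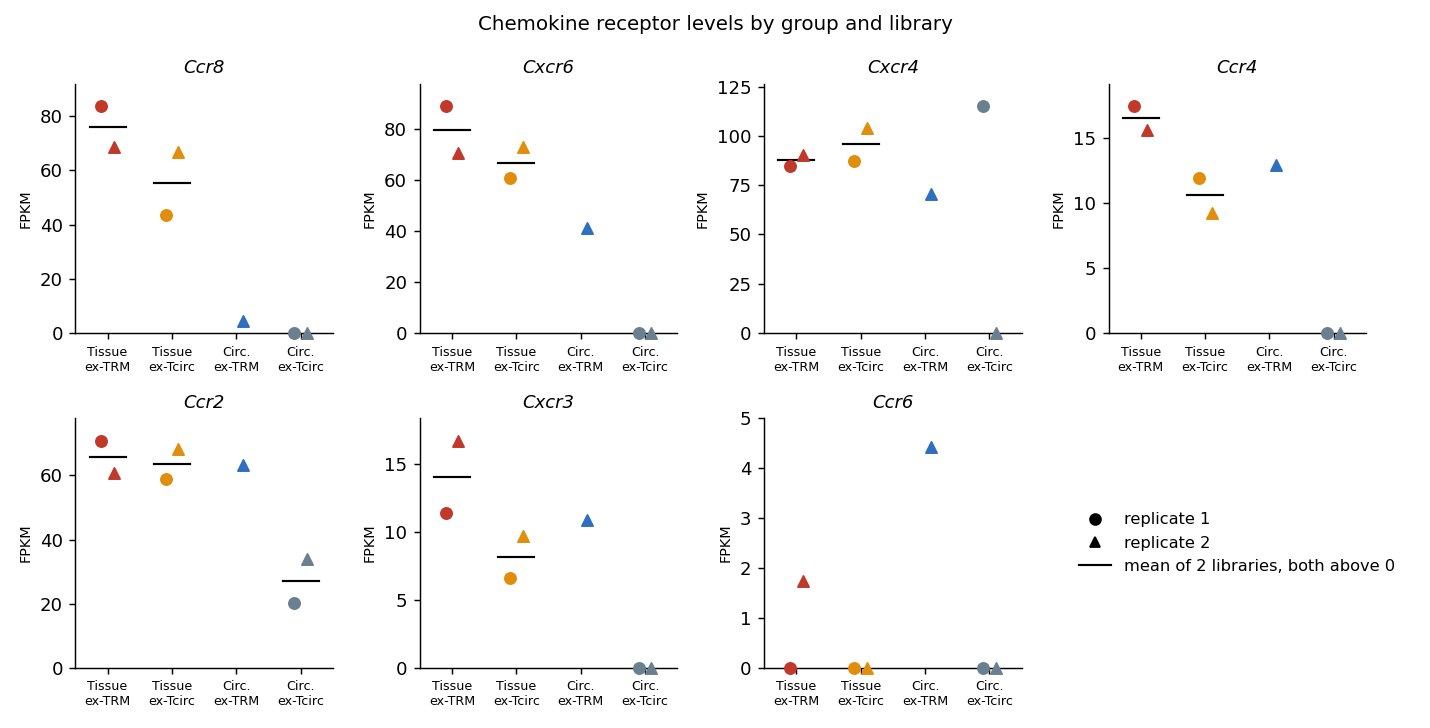
FPKM (linear axis, a separate range for each gene) of the 7 receptors, with 1 point per library and a bar at the mean where both libraries of a group are above 0. Ccr8 lies at 43.7 to 83.6 in the 4 tissue libraries and at 4.59 in circulating ex-TRM replicate 2, while Ccr2 is above 0 in all 7 libraries.

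Over the 4 groups, limma on log2(FPKM + 1) tested the 2656 genes with a mean of at least 20 FPKM over the 7 libraries, which took in 4 of the 7 members, Ccr8, Cxcr6, Cxcr4 and Ccr2. Between tissue and circulation, averaged over both origins, it called 7.34% of the genes tested at an adjusted p under 0.05 (6.55% higher in tissue), and 2 of the 4 members. Ccr8 rose in tissue, with a log2 difference of 4.78 ± 0.36 (SE; 95% interval 3.79 to 5.77; limma adjusted p = 0.0239). Cxcr6 rose in tissue as well, with a log2 difference of 3.50 ± 0.30 (SE; 95% interval 2.70 to 4.31; limma adjusted p = 0.0239). The median log2 difference over all genes tested was 0.43. Both sizes depend on the pseudocount, since circulating ex-Tcirc was listed at 0, and a pair of zeros adds no spread to the fit. Ccr8 reached the minimum mean of 20 FPKM through its tissue values, and the highest Cxcr6 values were in tissue too. The 2 calls are therefore no independent support for a tissue excess. Zeros in both circulating ex-Tcirc libraries were found for 156 of the 174 genes called higher in tissue and for 188 of all 2656 genes tested. Both calls were lost when any 1 tissue library was left out, with adjusted p = 0.235 and 0.224 for either gene without tissue ex-TRM replicate 1 and replicate 2, and 0.0817 and 0.0836 without tissue ex-Tcirc replicate 1 and replicate 2 (limma).

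Within cells of TRM origin, where the circulating side was a library that detected nearly as many abundant genes as the tissue ones, Ccr8 had the larger difference and Cxcr6 the smaller; the contrast between the genes was not tested. The log2 difference of tissue ex-TRM and circulating ex-TRM was 3.78 ± 0.56 for Ccr8 (SE; 95% interval 2.25 to 5.31; limma adjusted p = 1) and 0.93 ± 0.46 for Cxcr6 (SE; 95% interval -0.32 to 2.18; limma adjusted p = 1). Neither passed; limma called 0% of the 2656 genes in this comparison, and 87 had an unadjusted p under 0.05. A higher log2 difference was found for 6 genes in the case of Ccr8 and for 183 in the case of Cxcr6. Ccr8 met the minimum of 20 FPKM through its tissue values, so this order is no support for a tissue excess. The shared spread also took in the zeros of both genes in circulating ex-Tcirc, a group outside this comparison. The circulating side is a single library and is assumed to vary like the other groups. Ccr8 passed when no minimum was set on the level (limma adjusted p = 0.0457), where 1.98% of genes were called. It also passed without circulating ex-Tcirc replicate 2 and missed without circulating ex-Tcirc replicate 1, although both leave its own values in this comparison as they are. Over all alternatives its adjusted p ran from 0.0457 to 1. The ratio of Ccr8 to Cxcr6 FPKM within a library was also lower in the circulating library, at 0.941 and 0.974 in tissue ex-TRM and 0.719 and 0.916 in tissue ex-Tcirc, against 0.112 in circulating ex-TRM replicate 2. That ratio was looked at after the values had been seen and carries no test.

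Within cells of Tcirc origin, Ccr8 and Cxcr6 had 43.7 to 72.7 FPKM in tissue and were listed at 0 in circulation. limma called 9.11% of the 2656 genes here (8.36% higher in tissue), and 2 of 4 members, Cxcr6 at adjusted p = 0.00614 and Ccr8 at adjusted p = 0.00667. The log2 differences of 6.08 ± 0.38 for Cxcr6 and 5.78 ± 0.46 for Ccr8 (SE) stand against zeros and are not read as folds, and the median over all genes was 0.87. Neither gene met the minimum of 20 FPKM through the circulating libraries of this comparison, so these calls are no independent support for a tissue excess. The 2 circulating libraries of this comparison had the fewest genes above 0, and the part of detection in the result was not tested. The Cxcr6 and Ccr8 calls were lost without tissue ex-TRM replicate 2. Of the marker genes among those 2656, Il2ra, a regulatory T cell marker, alone passed. It was higher in tissue here (log2 difference 2.29 ± 0.29, SE, limma adjusted p = 0.015) and averaged over origins (limma adjusted p = 0.0399). Ctla4 of the same list did not pass here (limma adjusted p = 0.72). Foxp3, not tested, was at 2.65 to 8.3 FPKM in tissue, 5.52 in circulating ex-TRM replicate 2 and 0 in circulating ex-Tcirc. Ikzf2 of the same list, also not tested, did not share this pattern. Circulating ex-Tcirc had 2.89 and 8.88 FPKM of Ikzf2, and circulating ex-TRM replicate 2 had 3.95. Its tissue values ranged from 1.17 to 4.76 FPKM. The part of regulatory T cells in the receptor levels was not tested.

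Ccr4, the other receptor of the Th2 type, was lower than Ccr8 in every library where either was above 0, except circulating ex-TRM replicate 2. It was at 17.4 and 15.6 FPKM in tissue ex-TRM and 11.9 and 9.23 FPKM in tissue ex-Tcirc. It was at 12.9 FPKM in circulating ex-TRM replicate 2, within the range of the tissue libraries, and listed at 0 in circulating ex-Tcirc, in both replicates. Ccr4 lies at chr9:114490316-114505476 on the minus strand. Its mean over the 7 libraries was 9.58 FPKM, below the minimum of 20. With the minimum set at 5 FPKM, limma tested 9096 genes and called 24.8% of them between tissue and circulation averaged over origins, Ccr4 among them (log2 difference 1.93 ± 0.19, SE; adjusted p = 0.00567). In TRM origin cells alone, where 0% were called, its log2 difference was 0.33 ± 0.30 (SE; 95% interval -0.48 to 1.14; limma adjusted p = 1). In Tcirc origin cells, where 29% of genes were called at this minimum, it passed against the zeros (limma adjusted p = 0.00115).

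Cxcr3, the Th1-type receptor, was the lowest of the 6 members found in every tissue library in 2 of those 4 libraries, and Ccr4 in the other 2. Its FPKM was 11.4 and 16.7 in tissue ex-TRM and 6.63 and 9.69 in tissue ex-Tcirc. In circulating ex-TRM replicate 2 it was 10.9 FPKM, inside the tissue range, and in circulating ex-Tcirc it was listed at 0 in both replicates. Cxcr3 lies at chrX:101731535-101734147 on the minus strand. At the minimum of 5 FPKM it passed between tissue and circulation averaged over origins (log2 difference 1.74 ± 0.26, SE; limma adjusted p = 0.0121) and within Tcirc origin (limma adjusted p = 0.00269). Within TRM origin the log2 difference was 0.31 ± 0.40 (SE; limma adjusted p = 1). For Ccr4 and Cxcr3, all separation from tissue thus lay in libraries that listed them at 0, where 27.9% of genes with a tissue mean of at least 10 FPKM were at 0.

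Ccr6, the Th17-type receptor, was at or near 0 throughout. It was at 0 and 1.74 FPKM in tissue ex-TRM, 0 in both tissue ex-Tcirc libraries, 4.42 FPKM in circulating ex-TRM replicate 2 and 0 in both circulating ex-Tcirc libraries. Its mean over the 7 libraries was 0.881 FPKM, so that only the 2 fits with the lowest minimums tested it, and neither called it in any comparison. Ccr6 lies at chr17:8236041-8258519 on the plus strand and overlaps a non-coding gene, Gm33799, on the opposite strand.

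Cxcr4, the receptor of CXCL12, was the member whose 2 circulating ex-Tcirc libraries lay farthest apart. It was at 84.7 and 90.4 FPKM in tissue ex-TRM and 87.5 and 104 FPKM in tissue ex-Tcirc. It was at 70.7 FPKM in circulating ex-TRM replicate 2, at 115 FPKM in circulating ex-Tcirc replicate 1 and listed at 0 in circulating ex-Tcirc replicate 2. Tissue and circulation overlapped, since the highest and the lowest values of Cxcr4 both came from circulating ex-Tcirc. The log2 difference of tissue and circulation averaged over origins was 1.73 ± 1.87 (SE; 95% interval -3.34 to 6.81; limma adjusted p = 0.725). It became 3.45 without circulating ex-Tcirc replicate 1, where the median over all genes was 0.72. Without circulating ex-Tcirc replicate 2 it became 0.02, where that median was -0.06, so that 1 library decides the size. Circulating ex-Tcirc replicate 1 also held markers of other cell types that replicate 2 listed at 0. The 5 epithelial markers summed to 495 FPKM in replicate 1 and 0 in replicate 2, against 4.11 to 77.0 in tissue and 30.6 in circulating ex-TRM replicate 2; Sftpc, the surfactant gene of lung epithelium, made up 421 FPKM of it, and Sftpb, Epcam and Krt18 were at 0. The 7 B cell markers summed to 257 and 0 FPKM in those libraries, against 20.7 to 395 in tissue and 37.2 in circulating ex-TRM replicate 2, with Cd79a, Cd79b and Ms4a1 at 0 in replicate 1. The part of such cells in the Cxcr4 values was not tested. Within the 4 tissue libraries Cxcr4 averaged 91.7 ± 8.51 FPKM (SD, n = 4), the highest mean of the members.

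Ccr2, the receptor of CCL2, was the only member above 0 in all 7 libraries. It was at 70.7 and 60.8 FPKM in tissue ex-TRM and 59.0 and 68.2 FPKM in tissue ex-Tcirc. It was at 63.1 FPKM in circulating ex-TRM replicate 2, inside the tissue range, and at 20.1 and 34.0 FPKM in circulating ex-Tcirc. The tissue mean was 64.7 ± 5.65 FPKM (SD, n = 4). Within Tcirc origin the log2 difference was 1.25 ± 0.37 (SE, 95% interval 0.24 to 2.25, limma adjusted p = 0.163), which did not pass. It was 0.88 without circulating ex-Tcirc replicate 1, where the median over all genes was 1.63. Without replicate 2 it was 1.61, where that median was -0.1. Within TRM origin it was 0.05 ± 0.45 (SE; 95% interval -1.18 to 1.29; limma adjusted p = 1), and averaged over origins 0.65 ± 0.29 (SE; 95% interval -0.15 to 1.45; limma adjusted p = 0.375). CCR2 is also a receptor of monocytes, and the 8 myeloid markers summed to 76.3 and 115 FPKM in tissue ex-TRM, 177 and 51.4 FPKM in tissue ex-Tcirc, 76.4 in circulating ex-TRM replicate 2, and 811 and 300 in circulating ex-Tcirc. The sum was thus highest where Ccr2 was lowest; most of it was Lyz2, the lysozyme gene of myeloid cells, at 646 and 255 FPKM in circulating ex-Tcirc, and 3 (Itgam, Adgre1 and Marco) and 6 of the 8 markers were at 0 there. Csf1r, the receptor of the monocyte growth factor, was at 10.9 and 45.2 FPKM in circulating ex-Tcirc, against 2.24 to 10.5 in tissue. The part of such cells in the Ccr2 level was not tested, and in libraries of pooled cells, fewer expressing cells and less RNA per cell cannot be told apart. Ccr2 lies at chr9:124101918-124109140 on the plus strand.

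**Figure D2:**
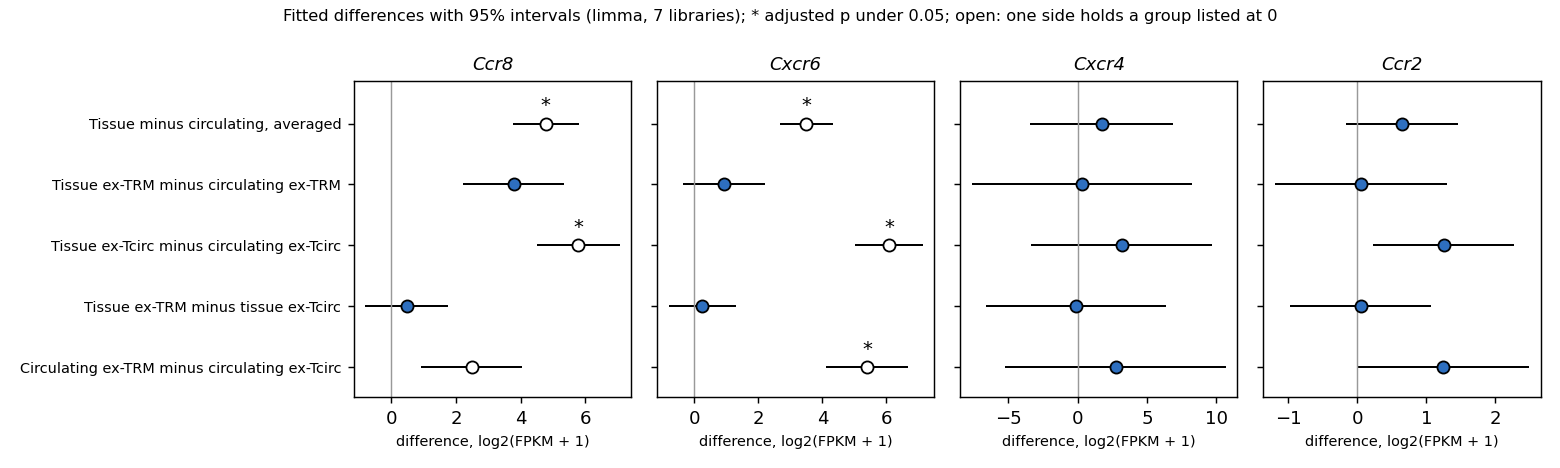
Log2 differences of FPKM + 1 (x axis, a separate range for each gene) with 95% intervals from limma over 7 libraries, for the 4 members with a mean of at least 20 FPKM; an asterisk marks an adjusted p under 0.05 and an open circle a difference that involves a group listed at 0. The intervals of Cxcr4 are the widest, and in tissue ex-TRM minus circulating ex-TRM Ccr8 lies at 3.78 and Ccr2 at 0.05.

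Between the 2 origins within tissue, no member passed the test. limma called 0% of the 2656 genes between tissue ex-TRM and tissue ex-Tcirc, with 7 genes at an unadjusted p under 0.05. Ccr8 averaged 76.1 ± 10.6 FPKM in tissue ex-TRM and 55.1 ± 16.2 FPKM in tissue ex-Tcirc (SD, n = 2 each), and its log2 difference of 0.48 ± 0.46 had a 95% interval of -0.77 to 1.73. Cxcr6 averaged 79.6 ± 13.0 FPKM in tissue ex-TRM and 66.7 ± 8.5 FPKM in tissue ex-Tcirc (SD, n = 2 each), with a log2 difference of 0.25 ± 0.38 and an interval of -0.77 to 1.27. Ccr2 had a log2 difference of 0.05 ± 0.37 and an interval of -0.96 to 1.05, and Cxcr4 one of -0.12 ± 2.37 (SE; limma adjusted p = 1 for all 4 genes). The low receptors Ccr4 and Cxcr3 had higher means in tissue ex-TRM than in tissue ex-Tcirc. At the minimum of 5 FPKM, 0% of the 9096 genes tested were called here, and their median log2 difference was 0.11. Ccr4 averaged 16.5 ± 1.29 FPKM in tissue ex-TRM and 10.5 ± 1.86 FPKM in tissue ex-Tcirc (SD, n = 2 each). Cxcr3 averaged 14.0 ± 3.78 FPKM in tissue ex-TRM and 8.16 ± 2.16 FPKM in tissue ex-Tcirc (SD, n = 2 each). Their log2 differences at the minimum of 5 FPKM, 0.61 ± 0.24 for Ccr4 and 0.71 ± 0.33 for Cxcr3 (SE), had intervals of -0.05 to 1.27 and -0.18 to 1.61, and neither passed (limma adjusted p = 1). These intervals hold differences in either direction.

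Between the 2 origins within circulation, Cxcr6 was the called member. limma called 6.63% of the 2656 genes between circulating ex-TRM and circulating ex-Tcirc (6.59% higher in circulating ex-TRM), and 1 of 4 members. Cxcr6 stood at 41.0 FPKM in circulating ex-TRM replicate 2, against 0 in both circulating ex-Tcirc libraries (log2 difference 5.39 ± 0.46, SE; limma adjusted p = 0.0152), in a comparison where the median over all genes was 1.06. The size rests on the pseudocount and became 8.68 with a pseudocount of 0.1. Its call was lost without tissue ex-TRM replicate 1 (limma adjusted p = 0.1) and without tissue ex-TRM replicate 2 (limma adjusted p = 0.105). Ccr8 stood at 4.59 FPKM, against 0 in both, and did not pass (2.48 ± 0.56, SE, limma adjusted p = 0.133). It passed in 8 of 16 alternatives. Among these were a pseudocount of 0.1 (5.55, limma adjusted p = 0.0201) and a common protein-coding sum (4.59, limma adjusted p = 0.036), with 7.19% and 7.12% of genes called. A mean of at least 5 FPKM, 1 FPKM in 2 libraries and no filter were others, with 24.7%, 15.5% and 11.9% of genes called. The fits without circulating ex-Tcirc replicate 1 or replicate 2 were also among them, but each left a single library in that group. The median over all genes was 1.86 and 0.19 in those 2 fits. One of the 8, the fit of both circulating groups alone, had no spread and is no test. Ccr2 had a log2 difference of 1.24 ± 0.45 (SE; 95% interval 0.01 to 2.47; limma adjusted p = 0.473) and Cxcr4 of 2.74 ± 2.90 (SE; limma adjusted p = 0.67). At the minimum of 5 FPKM, where 24.7% of 9096 genes were called, Ccr4 and Cxcr3 passed too (limma adjusted p = 0.00235 and 0.00436).

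Whether the difference between tissue and circulation itself differed between origins was tested as an interaction, for which limma called 0.151% of the 2656 genes and 0 of 4 members. Cxcr6 came closest, with an interaction of -5.14 ± 0.59 on the log2 scale (SE, limma adjusted p = 0.0509), a smaller fitted tissue excess in TRM origin. It sets a single circulating ex-TRM library at 41.0 FPKM against zeros in both circulating ex-Tcirc libraries. At the minimum of 5 FPKM Cxcr6 passed (limma adjusted p = 0.00796), where 22.1% of genes did, and 1996 of those 2013 calls were lower. Over genes with a mean of at least 20 FPKM and above 0 in all 7 libraries, 0 were called. With a pseudocount of 0.1 the Cxcr6 interaction was -8.43 (limma adjusted p = 0.02). The part of detection in these values was not tested. The interaction of Ccr8 was -2.00 ± 0.73 (SE; limma adjusted p = 0.524), that of Ccr2 -1.19 ± 0.59 (SE; limma adjusted p = 0.832) and that of Cxcr4 -2.86 ± 3.74 (SE; limma adjusted p = 0.841), against a median of -1.04 over all genes. Without circulating ex-Tcirc replicate 1, which left a single library in that group, the Cxcr4 term became -6.29, where the median over all genes was -1.76.

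The levels were also set against Ccr2 of the same library, a ratio that the scaling of a library does not move. A receptor listed at 0 keeps a ratio of 0, so only circulating ex-TRM replicate 2 adds to what the levels show. The ratio of Ccr8 to Ccr2 was 1.18 and 1.13 in tissue ex-TRM and 0.74 and 0.977 in tissue ex-Tcirc, against 0.0727 in circulating ex-TRM replicate 2 and 0 in both circulating ex-Tcirc libraries. For Cxcr6 the ratio was 1.26 and 1.16 in tissue ex-TRM and 1.03 and 1.07 in tissue ex-Tcirc, against 0.65 in circulating ex-TRM replicate 2 and 0 in both circulating ex-Tcirc libraries. An exact two-sided permutation test of 4 tissue and 3 circulating libraries gave p = 0.0571 for either ratio, the smallest that 35 arrangements allow, so that the test could not pass, and 0.143 after Benjamini-Hochberg adjustment over 5 ratios. The ratio of Ccr4 to Ccr2 was 0.135 to 0.257 in tissue and 0.204 in circulating ex-TRM replicate 2, and that of Cxcr3 was 0.112 to 0.275 in tissue and 0.173 in that library, both inside the tissue range (exact permutation p = 0.171 and 0.229 with the zeros of circulating ex-Tcirc; adjusted 0.286 for both). The ratio of Cxcr4 ran from 1.2 to 1.53 in tissue, and was 1.12 in circulating ex-TRM replicate 2 and 5.71 and 0 in circulating ex-Tcirc (exact permutation p = 0.857). These ratios were chosen after the values had been seen. The share of the summed FPKM of the 7 members was also computed, with 16.2% to 23.4% for Ccr8 in tissue and 2.21% in that library, and 18.7% to 21.9% for Ccr2 in tissue and 30.4% there.

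**Figure D3:**
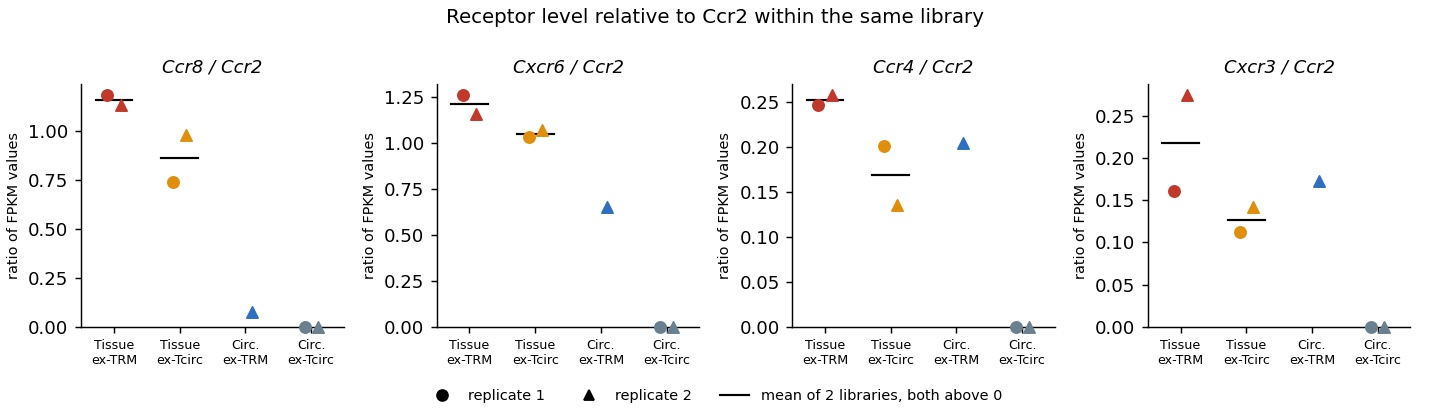
Ratio of each receptor's FPKM to that of Ccr2 in the same library (linear axis, a separate range for each receptor), with 1 point per library and a bar at the mean where both libraries of a group are above 0. The circulating ex-TRM library lies at 0.0727 for Ccr8, below every tissue library, and at 0.204 for Ccr4, among them.

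The genes whose levels followed each receptor most closely were taken as the 3 with the highest Pearson r of log2(FPKM + 1) over the 7 libraries, out of 2154 genes with a mean of at least 20 FPKM and no predicted-gene symbol. For Ccr8 these were Hnrnpll (r = 0.99), a regulator of splicing in lymphocytes, Rbpj (0.987), the DNA-binding partner of Notch, and the small nucleolar RNA Snord49b (0.987). Hnrnpll was at 42.5 and 39.2 FPKM in tissue ex-TRM and 26.7 and 33.0 in tissue ex-Tcirc, against 7.29 in circulating ex-TRM replicate 2 and 0 in both circulating ex-Tcirc libraries. For Cxcr6 they were Mdfic, Pde7a, a cyclic nucleotide phosphodiesterase, and Tspan13, a tetraspanin, each at r = 0.999; Mdfic was at 71.7 to 111 FPKM in tissue, 56.5 in circulating ex-TRM replicate 2 and 0 in both circulating ex-Tcirc libraries. For Cxcr4 they were Cic (r = 0.999), Pabpn1 and Ogdh (0.998 each), all listed at 0 in circulating ex-Tcirc replicate 2, as was Cxcr4. For Ccr2 they were Rcsd1 (r = 0.993), the ribosomal protein gene Rpl7a (0.979) and the sialyltransferase gene St8sia4 (0.978), all above 0 in every library. These correlations describe 7 libraries in which several of these genes share zeros, and carry no test.

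Averaged over the 7 libraries, no further chemokine receptor examined reached the level of Ccr8, Cxcr6, Cxcr4 or Ccr2. Of 15 further receptors of the family, 0 had a mean of at least 20 FPKM, and Ccr10, Ackr1 and Ackr3 were at 0 in all 7 libraries. Their summed FPKM was 26.1 and 27.3 in tissue ex-TRM, 33.3 and 18.9 FPKM in tissue ex-Tcirc, 46.3 in circulating ex-TRM replicate 2, and 32.1 and 31.3 in circulating ex-Tcirc. The summed FPKM of the 7 members was 357 and 324 in tissue ex-TRM, 269 and 330 FPKM in tissue ex-Tcirc, 208 in circulating ex-TRM replicate 2, and 135 and 34.0 in circulating ex-Tcirc. The highest of the 15 were Ccrl2, an atypical receptor that binds chemerin, at 7.62 to 11.8 FPKM in tissue, against 10.3, 28.8 and 0 FPKM in the circulating libraries, Ccr9, the gut-homing receptor, and Ccr7, the lymph node homing receptor. Ccr7 was at 1.50 and 2.48 FPKM in tissue ex-TRM, with 0 in tissue ex-Tcirc, against 17.8 in circulating ex-TRM replicate 2 and 0 in circulating ex-Tcirc, so that in the circulating ex-TRM library the order of Ccr7 and Ccr8 was the reverse of that in tissue. At the minimum of 5 FPKM 2 of the 15 were tested and neither was called in any of the 6 tests.

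**Figure D4:**
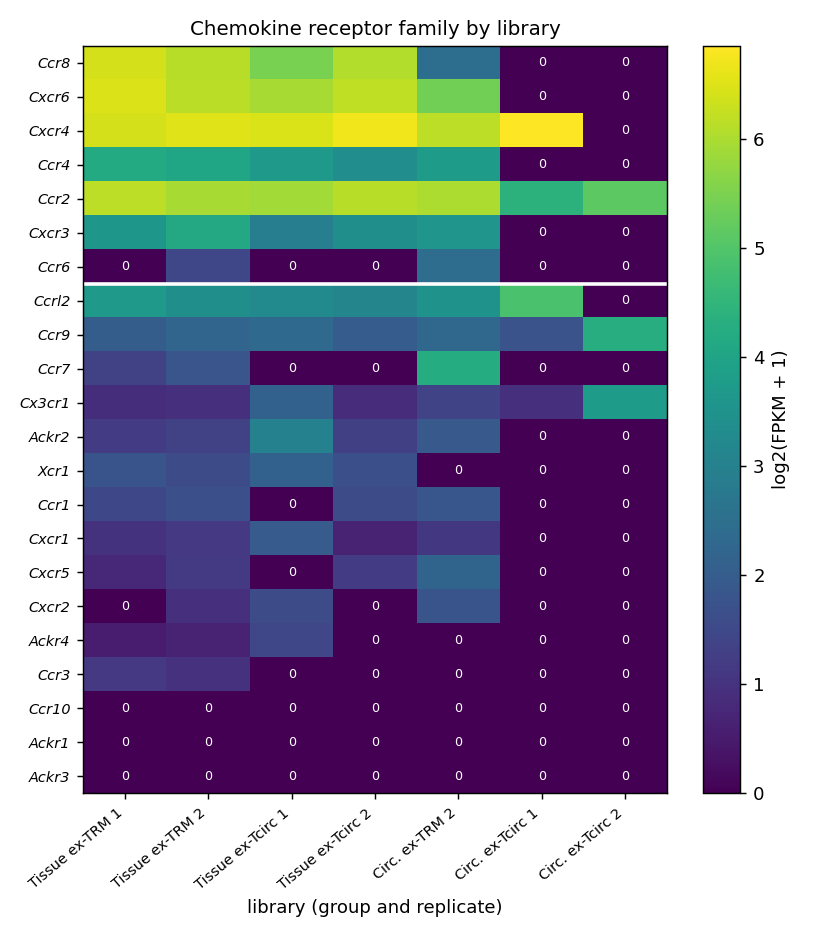
Levels of the 7 members (above the white line) and 15 further chemokine receptors (below it) in 7 libraries, as log2(FPKM + 1) on the colour scale; cells listed at 0 carry a 0. The members fall to 2 and 1 of 7 above 0 in circulating ex-Tcirc replicates 1 and 2, and Ccr7 is brightest in circulating ex-TRM replicate 2.

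Of 13 genes for ligands of the members, 7 were at 0 in all 7 libraries. Ccl1, the CCR8 ligand, which activated T cells also make, was the highest, at 20.3 and 15.5 FPKM in tissue ex-TRM, 3.71 and 17.2 FPKM in tissue ex-Tcirc, 14.5 in circulating ex-TRM replicate 2 and 0 in circulating ex-Tcirc. Unlike Ccr8, it was within the tissue range in the circulating ex-TRM library. At the minimum of 5 FPKM it was the 1 ligand gene tested, and limma called it higher in tissue ex-Tcirc than in circulating ex-Tcirc, and higher in circulating ex-TRM than in circulating ex-Tcirc, but not in the other comparisons. Both calls stand against zeros, and 29% and 24.7% of the 9096 genes were called in those comparisons.

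Among 8 other receptors for chemoattractants, the 3 with the highest means, Gpr183, S1pr1 and S1pr4, stood higher in the circulating ex-TRM library than in any tissue library. The sphingosine phosphate receptor S1pr1, an exit receptor of lymphocytes, had 2.99 to 5.34 FPKM across the tissue libraries, against 59.5 in circulating ex-TRM replicate 2 and 46.4 and 0 in circulating ex-Tcirc. Gpr183, the oxysterol receptor, was at 17.7 to 26.1 FPKM in tissue, 80.3 in circulating ex-TRM replicate 2 and 85.2 and 0 in circulating ex-Tcirc (averaged log2 difference -0.24 ± 1.77, SE; limma adjusted p = 0.944). S1pr4, a further sphingosine phosphate receptor, had 7.58 to 10.4 FPKM in tissue, against 19.1 to 35.3 in the 3 circulating libraries. At the minimum of 5 FPKM, 4 of the 8 were tested, and limma called S1pr4 lower and the leukotriene receptor Ltb4r1 higher in tissue averaged over origins, where 24.8% of the 9096 genes were called. Ltb4r1 had 10.1 to 26.0 FPKM across the tissue libraries, against 11.8 in circulating ex-TRM replicate 2 and 0 in both replicates of circulating ex-Tcirc. Of 26 names listed for signalling below chemokine receptors, 25 were in the files, and Adrbk1, which was not, is an older symbol of Grk2. At the minimum of 20 FPKM 16 were tested, and 0 were called in any of the 6 tests. Their median log2 difference averaged over origins was 0.65, beside 0.43 for all genes. The 3 highest were Dock2, an activator of Rac needed for lymphocyte migration, the inhibitory G protein gene Gnai2 and Rap1b; Dock2 had 113 to 157 FPKM in tissue, against 181 to 235 in circulation. At the minimum of 5 FPKM, 23 were tested and 2 called, the G protein subunit gene Gng2 and the phospholipase gene Plcb2. Both were called higher in tissue averaged over origins and in Tcirc origin, higher in circulating ex-TRM than in circulating ex-Tcirc, and lower in the interaction. Gng2 had 15.0 to 18.3 FPKM in the tissue libraries, against 8.69 in circulating ex-TRM replicate 2, and Plcb2 had 10.4 to 14.3 against 18.1; neither was above 0 in circulating ex-Tcirc. Beside these calls, 24.8%, 29%, 24.7% and 22.1% of the 9096 genes were called in those 4 tests.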

How the data were processed

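The authors deposited a table of FPKM for each RNA library, per the file headers. Tools in the submitters' processing notes include StringTie 3.0.1, HISAT2 2.2.1 and Trim Galore 0.6.7, with the build mm10 and no role stated for any; strand setting and annotation were not given in the sources used here. The read total of a library is unknown, so depth is described by the names above 0. Groups came from the sample titles, and rows of a repeated name were summed. No library held values identical to another's.

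The members, the gene lists, the 7 libraries and the 20 FPKM minimum were chosen with earlier results of these data known, so no pattern here is independent support for those results. limma 3.58.1 (R 4.3.3, intensity trend) was fitted to log2(FPKM + 1), 4 group means, with Benjamini-Hochberg adjustment over all genes tested and a threshold of 0.05; this scale understates changes of low genes. The 6 tests were tissue against circulating averaged and within each origin, origin within each location, and the interaction. The fit was also run on simulated, normally distributed values. These held no group listed at 0, so that run does not bear on calls against zeros. Named were the members, list genes that passed or else the 3 with the highest mean, and the 3 genes most like each tested member. Other marker genes and Fyco1 were named after their values or positions had been seen, and 1 gene of the lists is not reported here. Coordinates and promoters are from RefSeq (GRCm38.p6), which held all 7 members. Alternatives were a pseudocount of 0.1, other minimums, median-of-ratios factors, TPM, a common protein-coding sum, a replicate block, all 8 libraries, fewer groups or terms, and leaving out each library.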

Additional observations from a re-analysis of the deposited data

How the results depend on the processing

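Over the members' 4 main genes and the alternative settings, 331 values kept their direction and their side of the threshold, 27 moved past it, 22 fell back behind it and 14 changed direction, all of them for Cxcr4 or Ccr2 and none past the threshold under the alternative. The number of genes called depended on the minimum level and on single libraries; the cause was not tested. Averaged over origins, the 195 calls between tissue and circulation became 2259 at a mean of at least 5 FPKM, 3618 at 1 FPKM in 2 libraries, 4345 with no filter, 1 over genes above 0 in all 7 libraries, 56 with median-of-ratios factors, 113 as TPM, 0 with all 8 libraries, 1 when location was the sole term, and 0 to 1833 on leaving out 1 library. In Tcirc origin the 242 calls became 2640, 5984 and 4981 at those 3 lower minimums, 13 over genes above 0 in all 7 libraries, 0 with 8 libraries and 0 to 1948 on leaving out 1 library. In TRM origin the 0 calls became 854 with no filter, 3 with only the groups compared and 0 to 16 on leaving out 1 library. Between origins in tissue 0 became 584 with no filter and stayed 0 on leaving out any library. Between origins in circulation 176 became 2243, 4400 and 5128 at the lower minimums, 0 over genes above 0 in all 7 libraries, 0 with 8 libraries and 0 to 1781 on leaving out 1 library. The 4 interaction calls became 179 with a pseudocount of 0.1, 2013, 2099 and 3165 at the lower minimums, 0 over genes above 0 in all 7 libraries, 0 with median-of-ratios factors, 167 with a common protein-coding sum, 0 with 8 libraries and 0 to 1691 on leaving out 1 library. The highest of these leave-one-out counts came without circulating ex-Tcirc replicate 1, except in TRM origin, where it came without replicate 2.

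Averaged over origins, the log2 differences of Ccr8 ran from 4.42 to 6.55 and those of Cxcr6 from 3.19 to 5.16; beside the libraries named above, both calls were lost with 8 libraries (limma adjusted p = 0.312) and when location was the sole term (limma adjusted p = 0.0842 and 0.177). In Tcirc origin both were also lost with 8 libraries (limma adjusted p = 0.77). With circulating ex-TRM and circulating ex-Tcirc fitted alone, Ccr8 had no spread (SE 0), so its call there is no test.

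With all 8 libraries the log2 difference between origins in circulation became -0.35 for Cxcr4 and -1.76 for Ccr2, and the interaction 0.22 and 1.81. On leaving out 1 library, Cxcr4 ran from -0.27 to 6.59 in Tcirc origin, from -0.69 to 6.16 between origins in circulation, and from -6.29 to 0.57 for the interaction, with the change of direction in each case without circulating ex-Tcirc replicate 2. Likewise Ccr2 ran from -0.05 to 0.16 in TRM origin, and between origins in tissue Ccr2 ran from -0.06 to 0.15 and Cxcr4 from -0.25 to 0. Between origins in tissue Cxcr4 became 0.01 as TPM and Ccr2 -0.17 with a common protein-coding sum. With the replicate block Cxcr4 became -0.78 in TRM origin. The cause was not tested.

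Same-numbered replicates did not deviate together (correlations 0.007, -0.04 and -0.094 over 2656 genes). Such correlations cannot tell whether same-numbered libraries shared animals or a batch, and circulating ex-TRM could not be included. With the number as a replicate block, calls were 0 averaged over origins, 158 in Tcirc origin, 0 between origins in circulation and 0 for the interaction; Ccr8 and Cxcr6 stood at limma adjusted p = 0.165 averaged and 0.049 in Tcirc origin, and Cxcr6 at 0.12 between origins in circulation. Without circulating ex-TRM replicate 2 no value could be had for comparisons that use that group. The read total behind the zeros of circulating ex-Tcirc is unknown, so they are not read as absence of expression.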
